A study of Mus musculus with 13 samples.

Results

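Kidney glomeruli of mice of the genotype labelled kFRA (LCDD) were compared with glomeruli of the genotype labelled DH-LMP2A. The comparison takes 8 of the 13 RNA sequencing libraries of the series: 4 LCDD and 4 DH-LMP2A libraries, each LCDD pool sharing a 6-digit code in its title with 1 DH-LMP2A pool. These 4 pairs are numbered 1 to 4 in ascending order of the code. They were chosen by genotype label and code alone, with no use of measured values. Every library of both genotypes came from a pool of 3 mice aged 6 months on a mixed C57/BL6, 129/SV and BALB/c background, and no treatment is given. The other 5 libraries are wild type (WT) of the same age and background, 3 of them from single mice, and serve only as a level to read the others against, with no test. The labels do not describe the alleles, give no sex and do not say what the code stands for. They place the age at an early stage of glomerular scarring, and the title of the series asks how monoclonal free light chains harm the glomerulus.

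In light chain deposition disease (LCDD) a clone of plasma cells secretes an immunoglobulin light chain that settles in basement membranes and in the mesangium, where nodules of matrix can form. As background from the published work on these mice, and not from the labels, kFRA is a light chain of a patient placed in the mouse kappa locus, and DH-LMP2A is a viral protein placed in the heavy chain locus, which lets plasma cells form without a heavy chain; the LCDD mice of that work carry both. A glomerulus is a tuft of capillaries held by mesangial cells, lined by fenestrated endothelium and wrapped by podocytes, whose slit diaphragms complete the filter. Mesangial cells can divide and lay down matrix after injury, whereas mature podocytes seldom divide.

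The 8 libraries held 17274426 to 26544422 counts, and the smallest level counted as detected, 3 counts, was 0.113 to 0.174 CPM (read counts scaled to a common library size). Levels below are CPM scaled by TMM factors, and log2 levels use a prior count of 2. Per the series description each pool holds different mice. Except where the block by code is left out, p-values measure the spread of the 4 differences within pairs, with each gene's variance drawn towards that of other genes. They do not measure the whole spread between pools of a genotype. A glomerular marker was among the most abundant transcripts in both genotypes, with the podocyte gene Podxl ranked 10 of 16273 genes by counts per kilobase. Tubule RNA was present too: the proximal tubule gene Slc34a1 ran from 102.5 to 380.3 CPM in LCDD and from 111.9 to 940 CPM in DH-LMP2A. All pools held transcripts of both sexes, except that LCDD replicate 3 had 9 counts of Xist, the transcript of the inactive X chromosome. It had 1861 counts of the Y-linked gene Ddx3y. The mix of sexes also differed within pairs. In pair 2, Xist and Ddx3y had 13548 and 296 counts in LCDD and 1026 and 2296 in DH-LMP2A. In pair 3, the DH-LMP2A pool had 17524 and 435. Libraries of the same code deviated together from their genotype means, with correlations across genes of 0.146 to 0.593; libraries of different codes ran from -0.608 to 0.554, which overlaps that range. The code was kept as a block, so each gene was tested on its 4 differences within pairs.

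With edgeR's quasi-likelihood test and the code as a block, 779 of 16273 genes tested were called (Benjamini-Hochberg adjusted p under 0.05), which is 4.79% of them. Of these, 428 were higher in LCDD (2.63%) and 351 were lower (2.16%), against a median log2 fold change of -0.02 over all genes tested. DESeq2 called 991 higher and 999 lower, and at an unadjusted edgeR p under 0.05 there were 1847 and 1990. These wider counts are given for the lists below where they change the picture. Every edgeR list count below is to be read against 2.63% higher and 2.16% lower. DESeq2 list counts are to be read against its 991 and 999 of 16273 genes, and unadjusted ones against 1847 and 1990. A log2 fold change of at least 1 in size was reached by 239 of the higher and 236 of the lower genes. Each of the 779 moved the same way in all 4 pairs, as did 33.44% of all genes tested. The number of calls changed with the pair left out: without pair 2 only 73 genes were called, 72 of them among the 779. At an unadjusted edgeR p under 0.05 there were 2963 genes without pair 2, against 3662, 3213 and 2892 without pair 1, 3 and 4. Without the block 213 were called, 212 of them among the 779. Of the 779, 46 were called under each of 13 alternative analyses that tested them, among them Top2a, Cdk1, Iqgap3, Mcm6, Cxcl13, Cygb, Col5a2, C1s1, H2-Q7 and Ftl2-ps (higher) and Angptl7, Masp2, Pianp, Agap1, Extl1 and Net1 (lower).

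**Figure D1:**
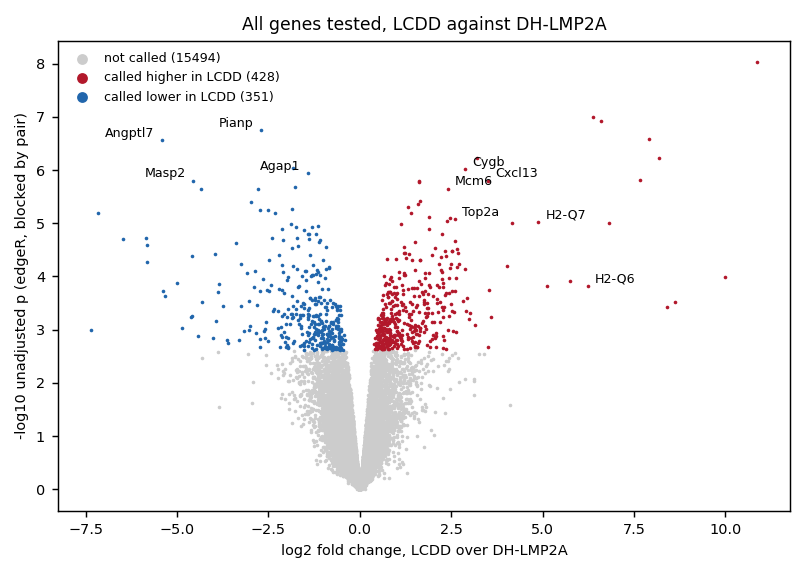
All 16273 genes tested, with the log2 fold change of LCDD over DH-LMP2A on the horizontal axis and -log10 of the unadjusted edgeR p on the vertical axis. Red points are the 428 genes called higher, blue points the 351 called lower and grey points those not called; named points include Top2a, Mcm6, Cxcl13, Cygb, H2-Q6 and H2-Q7 on the right and Angptl7, Masp2, Pianp and Agap1 on the left.

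Of the 28 gene lists, that of mitosis and cytokinesis had the largest share of members called. Of 61 tested members, 42 were called higher, against the 2.63% of all genes, 0 were called lower by edgeR (1 at an unadjusted p under 0.05 and 1 by DESeq2), 58 had a log2 fold change above 0 and 56 were higher in all 4 pairs. The median log2 fold change was 1.86. The mean log2 CPM of the list was 1.72 to 2.76 in the LCDD libraries and 0.323 to 0.688 in the DH-LMP2A libraries, with no overlap, and 0.212 to 0.745 in WT. The list difference was 2.07, 1.68, 1.30 and 1.08 on the log2 scale in pairs 1 to 4.

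Top2a, which encodes the topoisomerase that untangles chromosomes before they separate, read 42.5, 23.7, 15.6 and 16.6 CPM in the LCDD libraries and 5.48, 2.94, 2.68 and 4.54 CPM in the DH-LMP2A libraries, in the order of the pairs (here and below). The lowest LCDD library stood well above the highest DH-LMP2A library, and WT libraries read 3.19 to 4.82 CPM. The log2 fold change was 2.60 ± 0.22 (SE; edgeR adjusted p = 0.00417). Mki67, the proliferation marker Ki-67 that coats mitotic chromosomes, read 34.8, 34.3, 28.2 and 23.5 CPM in LCDD and 3.45, 4.5, 5.3 and 6.63 CPM in DH-LMP2A, again with no overlap, and 3.22 to 10.4 CPM in WT. Its log2 fold change was 2.62 ± 0.25 (edgeR adjusted p = 0.00607).

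Cdk1, the kinase that drives entry into mitosis, read 19.9, 9.15, 5.58 and 7.72 CPM in LCDD and 3.1, 1.45, 1.51 and 1.6 CPM in DH-LMP2A (log2 fold change 2.39 ± 0.20, edgeR adjusted p = 0.00432). Iqgap3, a scaffold protein of dividing cells, read 12.9, 4.88, 6.95 and 4.51 CPM in LCDD and 2.49, 0.818, 1.45 and 1.29 CPM in DH-LMP2A (2.25 ± 0.21, edgeR adjusted p = 0.00539). For both genes the pools of pair 1 were the highest of their genotype, and the groups did not overlap.

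The same direction held across roles within division. The partners of Cdk1, the cyclins Ccnb1, Ccnb2 and Ccna2, rose by 2.27, 2.14 and 1.97 on the log2 scale. The spindle kinesins Kif11, Kif15, Kif2c and Kif4 rose by 1.97, 2.65, 2.28 and 1.38. At the kinetochore, the site where chromosomes meet spindle fibres, Ndc80, Nuf2 and Cenpf rose by 1.53, 2.05 and 2.52. The genes of the final cut between daughter cells, Anln, Prc1, Cep55 and Kif23, rose by 2.17, 2.54, 2.26 and 1.44, and Foxm1, a transcription factor of the G2 phase, by 0.79. Among the 19 members not called were Plk1 (0.57, edgeR adjusted p = 0.342), Cdc20 (0.92, 0.0517) and 3 with values below 0, Hjurp (-1.02), Spc25 (-0.16) and Cenpa (-0.15). Of the 42 calls, 3 remained without pair 2 (Top2a, Cdk1 and Iqgap3), 15 without pair 1, 19 without pair 3, 26 without pair 4 and 24 without the block. With a score of proximal tubule genes added to the block 10 remained, and with a score of Y-linked genes 18. Here and below, an added score also takes up a residual degree of freedom, which lowers power.

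**Figure D2:**
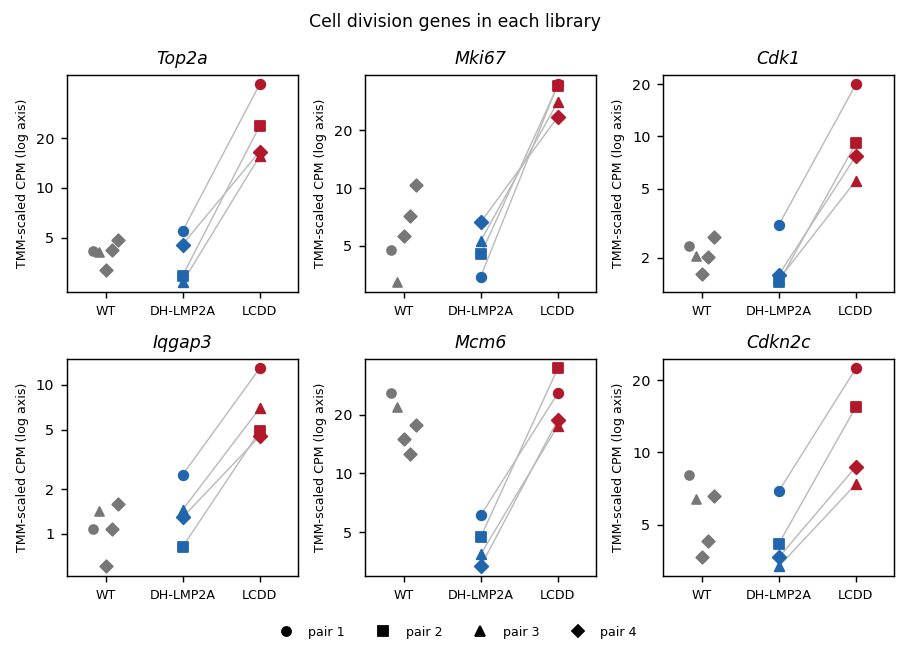
TMM-scaled CPM (log axis) of 6 genes of division and replication in every library: Top2a, Mki67, Cdk1, Iqgap3, Mcm6 and Cdkn2c. Each marker shape is a pair, grey lines join the LCDD and DH-LMP2A pools of a pair, and grey points are WT libraries, shaped by the pair whose code they carry; all lines rise towards LCDD, and for Mcm6 the WT points lie beside LCDD rather than DH-LMP2A.

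The promoters of 5 called genes of division and replication are shown because genes of mitosis are known to share a short element, the cell cycle genes homology region (CHR, TTTGAA), often near CCAAT boxes. The sequences are from RefSeq on build GRCm38.p6 and run from 250 bases before to 50 bases after each annotated start, in the direction of transcription. Capitals mark TTTGAA or CCAAT on either strand (TTCAAA and ATTGG are the same elements on the other strand), and neighbouring elements can overlap at their ends. The windows are chr11:99024140-99024439, chr10:69352863-69353162, chr7:135716330-135716629 and chr1:128359656-128359955 on the minus strand and chr3:88081801-88082100 on the plus strand.
Top2a: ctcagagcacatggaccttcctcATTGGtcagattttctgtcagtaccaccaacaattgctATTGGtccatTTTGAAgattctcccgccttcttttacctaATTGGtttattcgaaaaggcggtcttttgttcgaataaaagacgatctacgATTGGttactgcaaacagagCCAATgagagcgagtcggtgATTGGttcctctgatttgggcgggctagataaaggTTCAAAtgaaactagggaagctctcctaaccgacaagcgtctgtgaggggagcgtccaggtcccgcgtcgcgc
Cdk1: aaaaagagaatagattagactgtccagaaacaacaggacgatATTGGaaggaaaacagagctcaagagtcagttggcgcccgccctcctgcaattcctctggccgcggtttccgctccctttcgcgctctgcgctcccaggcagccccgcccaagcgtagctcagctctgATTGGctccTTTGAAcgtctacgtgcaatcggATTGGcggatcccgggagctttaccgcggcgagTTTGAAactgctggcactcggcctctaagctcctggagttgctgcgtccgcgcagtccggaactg
Mki67: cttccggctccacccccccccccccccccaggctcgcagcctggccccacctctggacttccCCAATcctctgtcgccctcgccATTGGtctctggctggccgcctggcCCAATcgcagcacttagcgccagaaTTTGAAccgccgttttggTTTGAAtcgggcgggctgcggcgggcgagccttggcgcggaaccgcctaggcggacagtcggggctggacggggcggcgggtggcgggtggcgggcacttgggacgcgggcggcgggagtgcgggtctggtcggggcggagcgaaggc
Iqgap3: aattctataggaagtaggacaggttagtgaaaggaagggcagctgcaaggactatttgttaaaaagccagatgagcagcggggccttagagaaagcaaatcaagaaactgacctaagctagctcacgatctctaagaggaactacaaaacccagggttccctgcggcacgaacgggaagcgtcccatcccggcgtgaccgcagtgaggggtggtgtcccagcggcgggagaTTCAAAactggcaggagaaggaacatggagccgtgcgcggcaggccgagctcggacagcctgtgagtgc
Mcm6: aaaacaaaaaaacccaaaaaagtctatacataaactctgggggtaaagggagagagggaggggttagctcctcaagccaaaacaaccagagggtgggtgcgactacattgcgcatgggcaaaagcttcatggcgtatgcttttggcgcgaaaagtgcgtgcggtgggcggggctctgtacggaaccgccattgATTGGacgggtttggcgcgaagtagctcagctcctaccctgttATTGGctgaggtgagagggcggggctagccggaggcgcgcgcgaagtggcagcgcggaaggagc

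Top2a, Cdk1 and Mki67 each hold 2 CHR matches and 3 to 6 CCAAT matches, Iqgap3 holds 1 CHR match and 0 CCAAT, and Mcm6 holds 0 CHR matches and 2 CCAAT. Of the 47 tested mitosis genes with a promoter in the table, 37 (78.72%) held TTTGAA, against 12.03% of 11105 tested genes. For the DNA replication list it was 6 of 40 (15%), and CCAAT was held by 65% of that list, 70.21% of the mitosis list and 38.15% of all. A match describes the letters only.

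DNA replication genes gave fewer calls: 11 of 50 tested members were called higher and 0 lower by edgeR (2 lower at an unadjusted p under 0.05 and 1 by DESeq2), with a median log2 fold change of 0.48 and 46 members above 0. Mcm6, a subunit of the MCM helicase that opens DNA ahead of the replication fork, read 25.7, 34.5, 17.5 and 18.8 CPM in LCDD, 6.09, 4.72, 3.85 and 3.34 CPM in DH-LMP2A and 12.6 to 25.9 CPM in WT. Every WT library thus lay above every DH-LMP2A library, and the WT range overlapped that of LCDD. The log2 fold change of Mcm6 was 2.41 ± 0.17 (edgeR adjusted p = 0.00187). The 5 other subunits of the helicase, Mcm2, Mcm3, Mcm4, Mcm5 and Mcm7, were not called and had log2 fold changes of 0.25, 0.68, 0.14, 0.72 and 0.14 (edgeR adjusted p from 0.0841 to 0.556); the difference between subunits was not tested. Dtl, which targets replication licensing factors for destruction, rose by 2.68 ± 0.28 (edgeR adjusted p = 0.00813), from 0.267 to 0.421 CPM in DH-LMP2A to 1.5 to 3.39 CPM in LCDD. E2f8 and E2f7, repressors that close the S phase programme, rose by 2.27 and 1.77. The nucleotide enzymes Rrm2 and Tk1 rose by 1.71 and 1.48. Pcna, the sliding clamp, was not called (0.29, edgeR adjusted p = 0.149). Of the 11 calls only Mcm6 remained without pair 2, 2 without pair 1, 6 without pair 3, 4 without pair 4, 6 without the block and 2 with the proximal tubule score.

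Of 16 tested cyclin D genes, their kinases and their inhibitors, 4 were called higher and 0 lower by edgeR (median 0.28; 1 lower at an unadjusted p under 0.05 and 1 by DESeq2). Cdkn2c, an inhibitor of Cdk4 and Cdk6, read 22.4, 15.5, 7.37 and 8.71 CPM in LCDD and 6.89, 4.16, 3.35 and 3.65 CPM in DH-LMP2A, without overlap (1.51 ± 0.18, edgeR adjusted p = 0.0115). Ccnd1, the cyclin that links growth signals to the cell cycle, read 732, 557, 349.6 and 277 CPM in LCDD and 486, 237, 177 and 166 CPM in DH-LMP2A, higher within each pair while the ranges overlapped (0.88 ± 0.13, edgeR adjusted p = 0.0204). The p53 target and inhibitor Cdkn1a and the growth regulator Mycn rose by 1.12 and 1.16. Cdkn1a read 35.6 to 107.6 CPM in LCDD, 20.7 to 68.6 CPM in DH-LMP2A and 55.3 to 135.5 CPM in WT. Cdkn1c, the inhibitor typical of resting podocytes, was not called (-0.68, edgeR adjusted p = 0.183). None of the 4 remained called without pair 2, without the block or with the proximal tubule score, and 2 remained without each other pair.

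**Figure D3:**
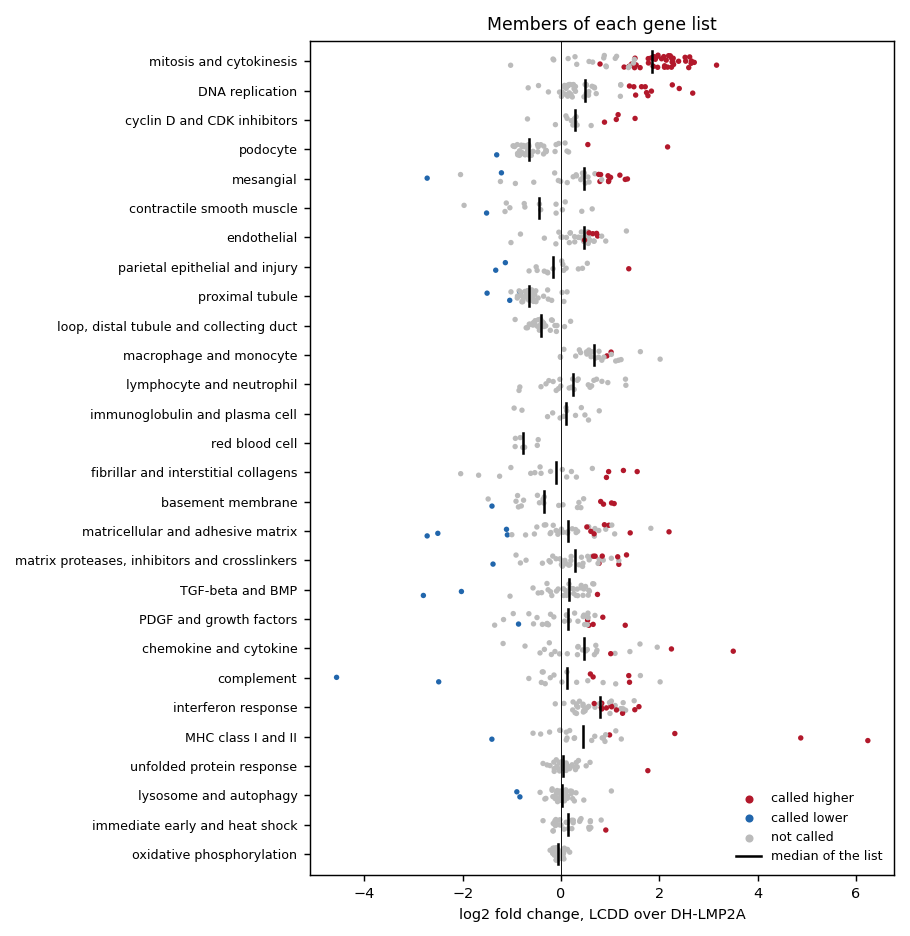
Log2 fold change of LCDD over DH-LMP2A for the tested members of 28 gene lists, one row per list. Red points are members called higher, blue points members called lower, grey points members not called and black bars list medians; the mitosis list lies farthest right, with a median of 1.86, and the podocyte, proximal tubule and red blood cell lists lie left of 0.

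Among the resident cells of the glomerulus, mesangial genes gave the most calls by edgeR; by DESeq2 podocyte genes did, with 2 higher and 24 lower against 17 and 5. Of 32 tested members, 10 were called higher and 2 lower, with a median of 0.46. Angpt2, an antagonist ligand of the endothelial receptor Tek, read 285, 184, 138 and 235 CPM in LCDD and 122, 65.5, 65.7 and 86.1 CPM in DH-LMP2A, without overlap (1.31 ± 0.10, edgeR adjusted p = 0.00336), and 85.01 to 164 CPM in WT. Serpine2, a secreted inhibitor of thrombin and plasmin, read 2299, 1144, 825 and 1260 CPM in LCDD and 822, 491, 454 and 535 CPM in DH-LMP2A (1.20 ± 0.15, edgeR adjusted p = 0.0123). The integrin subunit Itga8, which anchors mesangial cells to the basement membrane, rose by 0.81 ± 0.16 (edgeR adjusted p = 0.04). Pdgfrb, the receptor of the main mesangial mitogen, read 513, 716, 719.5 and 712 CPM in LCDD and 597, 690.5, 690.0 and 460.2 CPM in DH-LMP2A and was not called (0.13 ± 0.16, edgeR adjusted p = 0.681). Its ranges in the genotypes overlapped. Rgs5, a pericyte regulator of G protein signals, fell by 1.21 and Postn, a matrix protein of injured tissue, fell by 2.72. Of 15 contractile smooth muscle genes, Myh11, a myosin of vessel walls, was called lower (-1.51 ± 0.32, edgeR adjusted p = 0.0497) and 0 were called higher by edgeR (2 at an unadjusted p under 0.05 and 1 by DESeq2, which called 6 lower); Acta2 had -0.73 (edgeR adjusted p = 0.0836). Of the 10 mesangial genes called higher, only Angpt2 remained without pair 2, 1 remained without the block, 4 without pair 1, 9 without pair 3, 2 without pair 4 and 4 with the proximal tubule score. Myh11 remained called without pair 3 and not without any other pair.

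Of 36 endothelial genes, 5 were called higher and 0 lower by edgeR (median 0.47), and 31 had values above 0. The mean log2 CPM of the list was 7.52 to 8.35 in LCDD, 7.25 to 8.14 in DH-LMP2A and 7.96 to 8.36 in WT. The WT mean, 8.17, lay above those of LCDD (7.96) and DH-LMP2A (7.60). DESeq2 called 17 higher and 2 lower, and 24 and 3 had an unadjusted edgeR p under 0.05. Those called were Cd34 (0.74), a sialomucin of capillaries, Fabp4 (0.65), a fatty acid carrier, Nostrin (0.57), a regulator of nitric oxide synthase, Ecscr (0.72) and Tbx3 (0.48). Kdr and Pecam1, which mark all glomerular endothelium, were not called (0.53 ± 0.21, edgeR adjusted p = 0.184, and 0.50 ± 0.17, 0.135). None of the 5 remained without the block, without pair 2 or pair 4, or with the proximal tubule score. In bulk libraries such as these, more cells of a type and more RNA per cell cannot be told apart.

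Most podocyte genes had values below 0, and how many passed depended on the test. Of 42 tested members, 37 had values below 0 and the median was -0.66, and edgeR called only Thsd7a lower. DESeq2 called 24 lower, edgeR with no filter on low counts called 9, and 26 had an unadjusted edgeR p under 0.05. Nphs1, which encodes nephrin of the slit diaphragm, read 417, 906, 2895 and 2012 CPM in LCDD and 1203, 2289, 3673 and 3221 CPM in DH-LMP2A, a value lower in LCDD within every pair but with overlapping ranges (-0.98 ± 0.23, edgeR adjusted p = 0.0657). LCDD replicate 1 was the lowest of all 13 libraries for this gene. Wt1, a podocyte transcription factor, had -0.66 ± 0.24 and was not called (edgeR adjusted p = 0.161). Thsd7a, a podocyte surface protein, read 102, 257, 723 and 718 CPM in LCDD and 400.4, 876, 1119 and 1295 CPM in DH-LMP2A (-1.31 ± 0.25, edgeR adjusted p = 0.0401), and was not called without pair 1, 2 or 4 nor without the block. Both members called higher were Pla2r1 (0.55), a phospholipase receptor, and Anln (2.17), which is also on the mitosis list. The mean log2 CPM of the list differed by -0.993, -0.737, 0.024 and -0.256 in pairs 1 to 4, lowest in pairs 1 and 2. Summed over the list, podocyte RNA made up 15640 to 60640 CPM in LCDD and 31760 to 63140 CPM in DH-LMP2A. LCDD replicate 1 had the lowest list level, 7.37, against 8.07 to 9.20 in the other LCDD pools. The part of this shift in the other results was not tested.

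**Figure D4:**
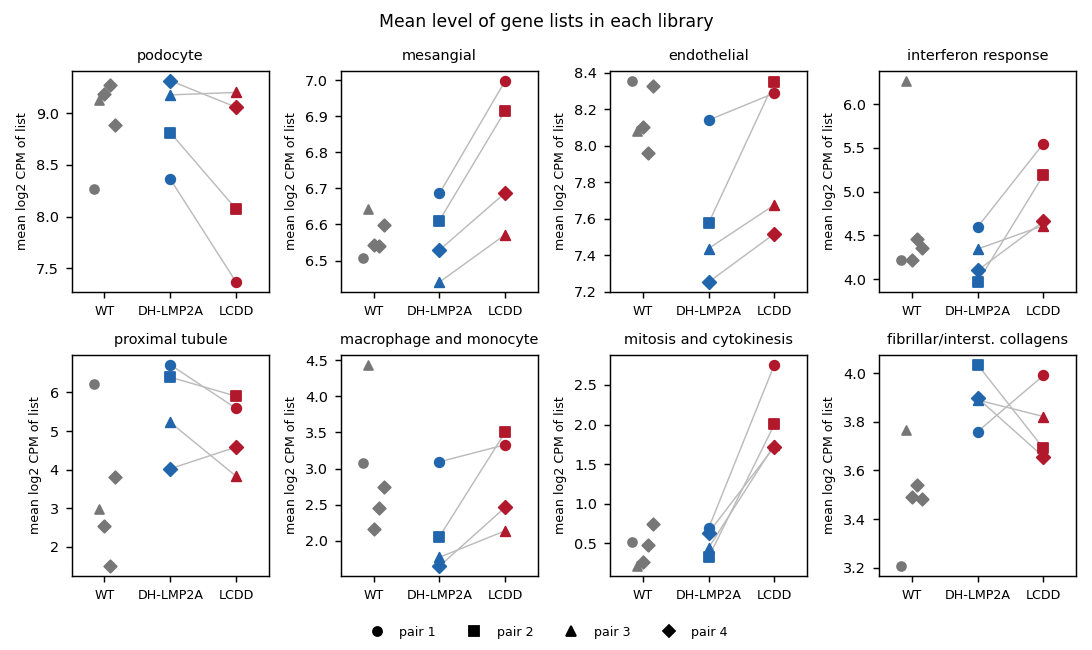
Mean log2 CPM of 8 gene lists in every library, with marker shapes for pairs, lines joining the pools of a pair, and WT libraries in grey. Mesangial, endothelial, interferon, macrophage and mitosis lists rise towards LCDD within each pair; podocyte and proximal tubule lists drop in 3 of 4 pairs each.

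The libraries also held RNA of cells outside the tuft. Of 43 proximal tubule genes, 40 had values below 0 (median -0.66) and 3 were called lower: Dpep1 (-1.5 ± 0.18), a brush border peptidase, Slc5a12 (-1.04 ± 0.14), a lactate carrier, and Slc5a2 (-0.83 ± 0.17), the main glucose carrier. Next to the 2.16% of all genes called lower, that is 6.98% of the list. The list level differed by pair, with list differences of -1.14, -0.492, -1.40 and 0.562 on the log2 scale. Of 29 genes of the later nephron 0 were called by edgeR or DESeq2 (median -0.41; 2 lower at an unadjusted edgeR p under 0.05). Of 7 red cell genes 0 were called by edgeR (median -0.78, 7 of 7 below 0), while DESeq2 called 4 lower and 5 had an unadjusted edgeR p under 0.05. These lists gave few calls each, to be read against the 2.63% of all genes called higher and 2.16% called lower. Parietal epithelial and injury genes had 1 of 17 called higher, the secreted chaperone Clu (1.38), and 2 lower, Dkk3 (-1.33) and Ncam1 (-1.13). That is 5.88% and 11.76% of the list. Clu read 57.5 to 126 CPM in LCDD, 20.4 to 64 CPM in DH-LMP2A and 41.8 to 155 CPM in WT. Of 26 macrophage genes 2 were called higher, the mannose receptor Mrc1 (0.93 ± 0.12, edgeR adjusted p = 0.0157) and the monocyte chemokine receptor Ccr2 (1.02 ± 0.19, edgeR adjusted p = 0.0353). These 2 calls are 7.69% of the macrophage list, against 2.63% of all genes, and DESeq2 called 7 of its members higher. Altogether 24 of the 26 had values above 0, among those not called C1qb (2.02, edgeR adjusted p = 0.0593). The mean log2 CPM of the list was 2.14 to 3.50 in LCDD, 1.65 to 3.09 in DH-LMP2A and 2.16 to 4.44 in WT. The defining marker Cd68, a lysosomal protein of macrophages, was low, at 3.72 to 6.05 CPM in LCDD and 2.31 to 5.36 CPM in DH-LMP2A. The whole list summed to 496 to 902 CPM in LCDD and 346 to 665 CPM in DH-LMP2A. Mrc1 was far more abundant than Cd68, with up to 13348 counts in the 8 libraries. Which cells the Mrc1 RNA came from was not tested. Of the calls in these lists, Dpep1 alone remained without pair 2 and none remained without the block. Summed over its 43 genes the proximal tubule list held 1634 to 4906 CPM in LCDD and 1375 to 8362 CPM in DH-LMP2A. With the proximal tubule score in the fit, 99 of the 428 genes called higher and 103 of the 351 called lower kept their call. The counts for single lists are given with each list. That fit has fewer residual degrees of freedom, and how much of the loss comes from the score itself was not tested.

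Of 18 tested fibrillar and interstitial collagens, 4 were called higher and 0 lower by edgeR, with a median of -0.09; 4 were lower at an unadjusted p under 0.05 and 3 by DESeq2. Col5a2, a minor chain that seeds collagen fibrils, read 155, 93.1, 80.7 and 136 CPM in LCDD and 50.3, 48.7, 38.4 and 49.6 CPM in DH-LMP2A (1.27 ± 0.14, edgeR adjusted p = 0.00884). No libraries of the genotypes overlapped, and WT read 27.4 to 61.4 CPM. Col8a1, a network collagen of vessel walls, read 186, 72.7, 72.05 and 137 CPM in LCDD and 34.8, 46.7, 29.96 and 37.4 CPM in DH-LMP2A (1.55 ± 0.28, edgeR adjusted p = 0.035). Col15a1 and Col6a3 rose by 0.97 and 0.92. Col1a1, the main chain of scar collagen, read 2.05, 0.68, 0.684 and 0.475 CPM in LCDD and 1.03, 4.35, 2.85 and 3.6 CPM in DH-LMP2A. It was the higher one in LCDD in pair 1 only, and it was not called (-1.68 ± 0.68, edgeR adjusted p = 0.201). Without pair 1 it was called lower, at -2.56 (edgeR adjusted p = 0.0282), and DESeq2 called it lower with all 4 pairs. Col3a1 had -0.53 ± 0.61 (edgeR adjusted p = 0.648) and fibronectin, Fn1, had 0.31 ± 0.14 (0.242). Without pair 2, Col5a2 was the 1 collagen of the 4 still called; with the proximal tubule score 2 were.

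Calls in the basement membrane list fell on some chains of type IV collagen and not on others. Col4a1 and Col4a2, which form the network of the mesangium and of most basement membranes, rose by 1.03 ± 0.15 and 1.08 ± 0.14 (edgeR adjusted p = 0.0196 and 0.0129). Col4a1 read 1991, 1567, 1048 and 917 CPM in LCDD and 929, 593, 606 and 514 CPM in DH-LMP2A, higher within each pair, and WT read 1045 to 1641 CPM, within the LCDD range. Col4a3, Col4a4 and Col4a5, which podocytes make for the filter itself, were not called and had values of -0.88, -0.81 and -0.76 (edgeR adjusted p = 0.112, 0.139 and 0.114). The linkers Nid1 and Nid2, which tie laminin to type IV collagen, rose by 0.86 and 0.81, and Egflam fell by 1.4. In all, 4 of 22 basement membrane genes were called higher and 1 lower, with a median of -0.34. These are 18.18% and 4.55% of the list, against 2.63% and 2.16% of all genes. DESeq2 called 5 higher and 8 lower. The 4 rises remained without pair 3, 2 remained without pair 1, and 0 remained without pair 2, without pair 4, without the block or with the proximal tubule score. Col4a1 and Col4a2 overlap head to head in the table, and the strand setting of the counting is not given in the sources used here.

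Of 40 tested matricellular and adhesive matrix genes, 7 were called higher and 4 lower (median 0.13). That is 17.5% and 10% of the list, against 2.63% and 2.16% of all genes. Tnc, tenascin-C, an adhesion-modulating protein of wounds and growing tissue, read 319.7, 91.8, 77.1 and 124 CPM in LCDD and 27.9, 27.1, 19.7 and 40.6 CPM in DH-LMP2A (2.20 ± 0.33, edgeR adjusted p = 0.0209). LCDD replicate 1 was the highest, and no DH-LMP2A library reached the lowest LCDD library. Tnc was not called without pair 2 (edgeR adjusted p = 0.104) or pair 3 (0.0552). The proteoglycan Bgn rose by 0.97, the CCN family member Wisp1 by 1.41 and the microfibril genes Fbn1, Ltbp4 and Efemp2 by 0.61, 0.88 and 0.53. Tnxb, a tenascin of connective tissue, read 11.7, 23.1, 18.4 and 26.4 CPM in LCDD and 26.96, 55.6, 39.7 and 47.3 CPM in DH-LMP2A and fell by 1.11 (edgeR adjusted p = 0.00634). Sparcl1, Postn and Aspn were lower, with log2 fold changes of -1.09, -2.72 and -2.51. Of these 11 calls Tnxb alone remained without pair 2; without the block its adjusted p by edgeR was 0.13, and 1 rise and 1 fall remained. With the proximal tubule score 0 of the 7 rises and 3 of the 4 falls remained.

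Of 38 tested proteases, inhibitors and crosslinkers of the matrix, 7 were called higher and 1 lower (median 0.29). That is 18.42% and 2.63% of the list, against 2.63% and 2.16% of all genes. The rises included the gelatinase Mmp2 (0.77) and its activator Mmp14 (0.70), Adam12 (1.15), Adamts1 (1.18), the collagenolytic cathepsin Ctsk (1.33) and the plasminogen activator Plau (0.66). Mmp14 read 108, 106, 77.8 and 85.3 CPM in LCDD and 60.5, 63.9, 55.6 and 51.6 CPM in DH-LMP2A (0.70 ± 0.09, edgeR adjusted p = 0.0153). Adamts15 fell by 1.38. The collagen crosslinkers Lox, Loxl1 and Loxl2 had -0.91, -0.71 and -0.83 and were not called (edgeR adjusted p = 0.154, 0.148 and 0.104). None of the 8 remained without pair 2, and 1 remained without the block and 1 with the proximal tubule score.

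**Figure D5:**
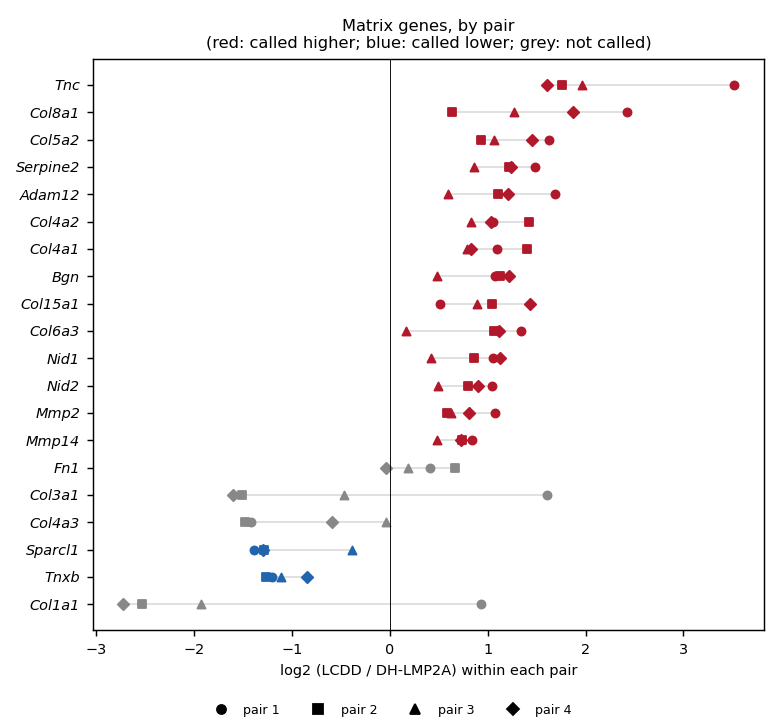
Log2 ratio of LCDD over DH-LMP2A within each pair (horizontal axis) for matrix genes named in the text, with a marker shape per pair. Red genes were called higher, blue lower and grey not called; Tnc, Col8a1 and Col5a2 lie right of 0 in every pair, whereas Col1a1 and Col3a1 lie right of 0 in pair 1 only.

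Ligands and inhibitors of growth factor pathways showed scattered calls. Of 35 TGF-beta and BMP genes, Fstl1 was called higher (0.74 ± 0.10), and 2 were called lower, 2.86% and 5.71% of the list against 2.63% and 2.16% of all genes. DESeq2 called 8 higher and 2 lower, and with the proximal tubule score edgeR kept none of the 3. Among the falls, the BMP antagonist Nog (noggin) read 0.41, 0.378, 0.158 and 0.158 CPM in LCDD and 1.72, 1.64, 2.96 and 1.78 CPM in DH-LMP2A, low in both (-2.80 ± 0.43, edgeR adjusted p = 0.022). Tgfb1, the ligand most tied to scarring, read 97.5, 146, 66.5 and 89.1 CPM in LCDD and 81.8, 70.2, 52.5 and 43.6 CPM in DH-LMP2A and was not called (0.67 ± 0.16, edgeR adjusted p = 0.0648). Its targets Smad7 and Ctgf were not called either (0.56 and 0.69, 0.0507 and 0.074). Of 32 PDGF and other growth factor genes, 5 were called higher and 1 lower. The ligands Pdgfa and Pdgfd rose by 0.57 and 0.65, and the vascular co-receptor Nrp1 by 0.85, while Pdgfb, made by endothelium, had 0.11 (edgeR adjusted p = 0.528). Igf2 fell by 0.86. Of these calls, Angpt2, counted here also, alone remained without pair 2, and 1 rise remained with the proximal tubule score.

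The chemokine Cxcl13, which attracts B cells, had the largest rise of the immune genes listed outside the MHC. It read 687, 329.6, 90.7 and 234 CPM in LCDD, 46.2, 21.96, 14.3 and 20.8 CPM in DH-LMP2A and 6.0 to 32.4 CPM in WT. The lowest LCDD library lay above the highest of the other 9 libraries, and the log2 fold change was 3.50 ± 0.23 (edgeR adjusted p = 0.00168). Of 26 chemokine and cytokine genes, the scavenger chemokine Cxcl16 (1.01) and the endothelial adhesion molecule Sele (2.25) were the other 2 called, both higher. Calls made up 11.54% of the list, against 2.63% of all genes called higher. DESeq2 called 10 higher and 1 lower. Ccl2, the main monocyte attractant, was not called (1.61, edgeR adjusted p = 0.208). Of the 3 calls Cxcl13 alone remained without pair 2, and 2 remained with the proximal tubule score. The B cell and plasma cell genes did not pass the test. Igkc, the constant part of the kappa light chain, read 8.79, 7.33, 7.26 and 4.71 CPM in LCDD and 7.74, 5.13, 5.02 and 2.23 CPM in DH-LMP2A (0.56 ± 0.19, edgeR adjusted p = 0.142). WT read 24.9 to 75.9 CPM of Igkc. Of 13 immunoglobulin and plasma cell genes 0 were called by edgeR or DESeq2 (2 higher and 0 lower at an unadjusted edgeR p under 0.05), and Igha, the constant part of immunoglobulin A, was too low to test, at most 0.335 CPM in the 8 libraries against 9.04 to 56.1 CPM in WT.

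In the complement list, 4 of 21 genes were called higher and 2 lower. C1s1, the mouse gene of the protease C1s of the classical pathway, read 289.7, 222, 174 and 268 CPM in LCDD and 101, 78.6, 83.5 and 94.1 CPM in DH-LMP2A (1.39 ± 0.11, edgeR adjusted p = 0.00353), without overlap. Its partner C1ra and the inhibitor Serping1 rose by 0.65 and 0.60. The proteases of the lectin pathway, Masp1 and Masp2, fell: Masp1 read 0.149, 0.68, 1.0 and 1.39 CPM in LCDD and 1.57, 3.9, 5.52 and 5.65 CPM in DH-LMP2A (-2.49 ± 0.28, edgeR adjusted p = 0.00912). Masp2 read 0.0745, 0.151, 0.158 and 0.237 CPM in LCDD and 1.26, 3.38, 5.13 and 6.01 CPM in DH-LMP2A (-4.57 ± 0.30, edgeR adjusted p = 0.00168). WT read 0.134 and 0.0619 CPM of Masp2 in replicates 1 and 2 and 0.981 to 1.745 CPM in replicates 3 to 5. Masp2 overlaps the far more abundant Tardbp on the opposite strand. C1s1 and Masp2 remained called without pair 2, and the other 4 did not; with the proximal tubule score 1 rise and both falls remained.

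Interferon response genes leaned upward in LCDD as a list, with 41 of 42 above 0, 34 higher in all 4 pairs, a median of 0.80, and 11 called higher and 0 lower by edgeR. DESeq2 called 26 higher and 0 lower, and at an unadjusted edgeR p under 0.05 there were 35 and 0. Xaf1, a pro-apoptotic interferon target, read 70.1, 108, 94.95 and 101 CPM in LCDD and 28.3, 28.5, 36.1 and 30.3 CPM in DH-LMP2A, without overlap (1.59 ± 0.12, edgeR adjusted p = 0.00309). Oas1a and Usp18, an antiviral RNA sensor and a brake on interferon signalling, rose by 1.5 and 1.25, and the transcription factor Irf7 by 0.92. The list difference was 0.955, 1.23, 0.268 and 0.560 in pairs 1 to 4, smallest in pair 3. High levels also occurred in WT: WT replicate 2 had the highest mean log2 CPM of the list, 6.27, against 4.61 to 5.55 in LCDD and 3.97 to 4.60 in DH-LMP2A. Of the 11 calls, Xaf1 alone remained without pair 1, 2 or 4, 1 remained without the block, 1 with the proximal tubule score, 9 without pair 3, and 2 when all 13 libraries were fitted with the block.

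Of 24 genes of the major histocompatibility complex (MHC), 4 were called higher and 1 lower (16.67% and 4.17%, against 2.63% and 2.16% of all genes). H2-Q7, a nonclassical class I molecule, read 277, 607, 1796 and 1052 CPM in LCDD and 27.3, 16.7, 34.7 and 28.3 CPM in DH-LMP2A (4.88 ± 0.42, edgeR adjusted p = 0.00432), and its neighbour H2-Q6 rose by 6.24 ± 0.83 (0.0156). WT libraries read 528 to 1538 CPM of H2-Q7 and 1639 to 3384 CPM of H2-Q6, so DH-LMP2A was the low genotype of the 3. H2-Q5 and H2-T24 rose by 2.32 and 0.99, and H2-Q1 fell by 1.41. The classical class I genes H2-K1 and H2-D1 were not called (0.18 and 0.28), nor were the class II genes H2-Aa and Cd74 (1.23 and 0.91, edgeR adjusted p = 0.0601 and 0.125). The H2-Q genes are near-identical copies that differ between strains, so how reads were split among them is uncertain. H2-Q7 alone of the 5 remained called without pair 2, and 2 of the 4 rises remained with the proximal tubule score.

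Stress and housekeeping programmes gave 0 to 2 calls a list, to be read against the 2.63% and 2.16% of all genes. Of 34 genes of the unfolded protein response, by which cells answer misfolded protein in the endoplasmic reticulum, 1 was called: Asns, the asparagine synthetase gene, which read 14.8, 16.8, 12.3 and 7.0 CPM in LCDD and 5.29, 3.01, 2.85 and 3.47 CPM in DH-LMP2A (1.77 ± 0.26, edgeR adjusted p = 0.0203). The chaperone Hspa5 and the factor Ddit3 had 0.28 and -0.03 (edgeR adjusted p = 0.295 and 0.905), and the list median was 0.05. Of 40 lysosome and autophagy genes 2 were called lower, Ctsh (-0.90) and Glb1 (-0.84). Of 32 immediate early and heat shock genes Ier5 was called higher (0.91), and of 44 oxidative phosphorylation genes 0 were called by edgeR or DESeq2 and 0 had an unadjusted edgeR p under 0.05, with a list median of -0.06. None of these 4 calls remained without pair 2. DESeq2 called 2, 3 and 4 genes of these first 3 lists in the same directions, and 2 lysosome and autophagy genes higher.

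Of the 12 largest rises, with predicted genes and pseudogenes left out, H2-Q6, H2-Q7, Cxcl13, Dtl, Kif15 and Mki67 were given with the lists above. Cpne4, Cygb and Epha3 lay outside these lists, as did most of the falls named below. Cpne4, a calcium-dependent membrane-binding protein, read 165, 48.3, 18.5 and 30.2 CPM in LCDD and 13.7, 4.27, 2.62 and 4.41 CPM in DH-LMP2A (3.20 ± 0.18, edgeR adjusted p = 0.0012), with WT at 23.1 to 32.2 CPM, again nearer LCDD. Cygb, cytoglobin, a globin of fibroblasts and pericytes, read 92.2, 113, 136 and 84.02 CPM in LCDD and 16.7, 17.7, 12.2 and 10.7 CPM in DH-LMP2A (2.89 ± 0.17, edgeR adjusted p = 0.00157). For Cygb the WT libraries were lowest, at 4.52 to 9.93 CPM. Ephrin receptor Epha3 rose by 1.61 ± 0.11 (edgeR adjusted p = 0.00168), from 16.01 to 49.5 CPM in DH-LMP2A to 54.9 to 123 CPM in LCDD.

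The ferritin pseudogene Ftl2-ps (chromosome 4, 125504288 to 125504839 on GRCm38) read 108, 109, 107 and 114 CPM in LCDD and was at or under the floor of 3 counts in every DH-LMP2A and WT library. Against the floor its log2 fold change was 9.35 or beyond (edgeR adjusted p = 0.000152). Its LCDD values were nearly equal in all 4 pools, unlike those of the genes above. Slc6a16, an orphan transporter, read 1.23, 1.78, 3.42 and 2.38 CPM in LCDD and had 0 counts in DH-LMP2A, putting its log2 fold change at 3.72 or beyond (edgeR adjusted p = 0.021).

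Among the falls, Angptl7, an angiopoietin-like secreted protein, read 0.857, 2.42, 4.26 and 2.14 CPM in LCDD and 50.5, 149, 94.8 and 96.6 CPM in DH-LMP2A (-5.41 ± 0.27, edgeR adjusted p = 0.000745). WT read 1.07 to 19.1 CPM, below every DH-LMP2A pool. WT replicate 1, at 1.07 CPM, lay within the LCDD range. Angptl7 lies inside Mtor on the opposite strand, near Masp2 on chromosome 4. Pianp, a neuronal receptor ligand, read 9.79, 12.6, 9.95 and 12.8 CPM in LCDD and 72.6, 76.6, 77.04 and 65.7 CPM in DH-LMP2A (-2.70 ± 0.13, edgeR adjusted p = 0.000728). WT read 9.85 to 48.2 CPM of Pianp, below every DH-LMP2A pool and with its lowest library within the LCDD range. Agap1, a regulator of vesicle traffic, read 52.03, 80.5, 103 and 97.0 CPM in LCDD and 154, 210.2, 254 and 256 CPM in DH-LMP2A (-1.42 ± 0.09, edgeR adjusted p = 0.00168), with WT at 128 to 294 CPM. Pianp and Agap1 were both lower in every LCDD pool than in any DH-LMP2A pool. Extl1, a glycosyltransferase of the heparan sulfate family, fell by 2.79 and the peptidase Xpnpep2 fell by 4.62. WT read 6.46 to 18.0 CPM of Extl1 and 0.371 to 6.74 CPM of Xpnpep2. Both WT ranges lay below every DH-LMP2A pool, the lowest of which read 19.4 and 20.1 CPM. The histone gene Hist2h2bb fell by 5.82 and the imprinted RNA H19 fell by 3.08. In WT, Hist2h2bb read 0.0335 and 0.0619 CPM in replicates 1 and 2 and 2.6 to 3.11 CPM in replicates 3 to 5. Trim12a fell by 4.87, but DH-LMP2A replicate 1 read only 1.26 CPM against 24.6 to 32.8 CPM in the other DH-LMP2A pools. WT read 21.1 to 57.7 CPM of Trim12a. Ifi202b, an interferon-induced gene, was at or under the floor in every LCDD pool and ran from 0.706 to 2.85 CPM in DH-LMP2A, so its log2 fold change was -3.83 or beyond (edgeR adjusted p = 0.00353). In WT, Ifi202b had 0 counts in replicates 1 and 2 and read 2.73 to 4.5 CPM in replicates 3 to 5. Its fall ran against the interferon list above.

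Several of these genes lost their call when pair 2 was left out, with little change in size: Xpnpep2, Hist2h2bb, H19, Trim12a, Slc6a16 and H2-Q6 had edgeR adjusted p of 0.117, 0.0801, 0.0908, 0.142, 0.0836 and 0.0958. Trim12a and Xpnpep2 also lost it without pair 3 (edgeR adjusted p = 0.102 and 0.0574), without pair 4 (0.103 and 0.0582) and with either added score, and H19 without the block (0.0513) and with the proximal tubule score. Without pair 2 so did Mki67 and Dtl, whose log2 fold changes were then 2.51 and 2.65 (edgeR adjusted p = 0.0647 and 0.0614). Cpne4, Epha3, Angpt2 and Serpine2 lost their call without the block, at 0.0845, 0.0724, 0.0554 and 0.13 (edgeR adjusted p).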

How the data were processed

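RNA was measured in magnetic-bead purified glomeruli as stranded, paired-end mRNA libraries. Per the submitters' processing notes, the tools were STAR 2.4.0a, featureCounts of Subread 1.5.0-p3 and DESeq2, with build mm10 (GRCm38); strand setting, handling of multimapped reads and annotation are not given in the sources used here. The deposited values are raw read counts per gene, per the file headers, for 46958 genes; rows naming no gene numbered 0. All 13 count columns carry a sample title.

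The test was the quasi-likelihood F-test of edgeR 4.0.16 (R 4.3.3) on the 8 LCDD and DH-LMP2A libraries, with the title code as an additive block and genotype as the term tested, leaving 3 residual degrees of freedom. After filterByExpr (minimum count 10) 16273 genes remained and 30685 were left out; the genes tested held 99.91% or more of the counts of each library. TMM factors were 0.981 to 1.01. The prior for each gene's variance, drawn from all genes, carried 3.80 degrees of freedom. Standard errors were derived as log2 fold change over the root of F. Libraries of one genotype differed beyond sampling noise in all 12 pairs (chi-square per degree of freedom 18.5 to 234). Same-code deviations correlated at 0.146, 0.458, 0.5 and 0.593, which set the block. The 3-count floor covers counting error only, since the libraries carry no molecular identifiers.

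Members and gene lists were chosen with earlier results of these data known. Genes named are the 12 largest rises and falls among called genes (mean CPM 1 or more, 1 direction in all 4 pairs), and the 12 with the smallest p, both leaving out predicted genes and pseudogenes, then up to 4 called members per list, fixed genes (Ftl2-ps among them) and genes of the densest windows; other list members are given as examples, chosen after their values were seen. Some genes are not reported here. In simulated counts for the 16273 genes of this comparison, edgeR recovered 62 of 100 genes changed by a log2 of 1 and 92 of 100 changed by 2, with 14 false among 168 calls; DESeq2 1.42.0 recovered 75 and 94, with 44 false among 213. The alternatives were other size factors, DESeq2, other filters, all 13 libraries, no block, an added proximal tubule or Y-linked score, and leaving out each pair.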

Additional observations from a re-analysis of the deposited data

Results flagged for a closer look

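Values standing far from the other 3 pools of their genotype (Dixon's test at the 95% level) were looked for in 346 groups of 4 values, and 24 were found, where chance gives about 1 in 20 groups, or 17.3. The total of LCDD replicate 3, 18604929 counts, was below the other LCDD totals, which began at 25276687.

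In LCDD replicate 1, 5 genes stood apart in log2 CPM. Extl1 was low at 1.09, Pdgfrb low at 9.002, Mmp2 high at 7.91, Col3a1 high at 2.23 and Ighm high at 3.92. In LCDD replicate 2, Tmod4 was low at -1.11 and Xbp1 low at 7.18. In LCDD replicate 3, Ccdc28b was high at 5.09, the hemoglobin gene Hba-a1 high at 8.80 and Gm7879 low at -3.57. In LCDD replicate 4, Ifi202b was high at -3.01, with 1 count against 0 in the others, Jchain low at -2.30 and Gm43303 high at 0.80.

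In DH-LMP2A replicate 1, the lysosome and autophagy list (mean log2 CPM 6.96) and the oxidative phosphorylation list (6.91) were high against at most 6.67 and 6.49 in the other pools. Trim12a was low there at 0.43 and Arpp21 low at 0.39, while Cdk1 was high at 1.67 and Lhfp high at 7.98. In DH-LMP2A replicate 2, Ifi202b was low at -0.34 and Xbp1 low at 7.27. In DH-LMP2A replicate 3, Col5a2 was low at 5.27 and Nog high at 1.60.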

How the results depend on the processing

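The 779 calls (428 higher, 351 lower) kept their direction under each of the 13 alternatives wherever the gene was tested. Since each of the 779 moved the same way in all 4 pairs, leaving out a pair or the block could hardly turn a sign. The kept direction is therefore no measure of stability. The number of calls depended on the analysis. RLE size factors gave 768 calls and all 13 libraries with the replicate block gave 1021. DESeq2 called 1990 genes (991 higher, 999 lower), and no filter on low counts gave 1338 (687 and 651), with most calls of the main analysis among them (777 and 778). Keeping only genes with a mean of 5 CPM or more left 406 (218 and 188). Without the block, 213 genes were called from the 8 libraries (123 and 90) and 334 from all 13 (218 and 116), a share of higher calls of 65.27% in the latter. Adding the proximal tubule score to the replicate block left 246 (116 and 130) and adding the Y-linked score 260 (135 and 125). Of these, 202 and 240 were among the 779. Both fits have fewer residual degrees of freedom than the main one, and how much of the loss comes from the scores was not tested. Leaving out 1 pair gave 73 to 427 calls, 40 to 225 higher and 33 to 202 lower, the fewest without pair 2; these fits have fewer pairs, and further causes were not tested. The within-pair correlation was lowest for pair 2, and 3 of 4 LCDD libraries correlated best with the DH-LMP2A library of their own pair.

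Signs that turned belonged to genes not called. With 1 pair left out, log2 fold changes ran from -0.82 to 0.00632 for Umod, -0.61 to 0.00562 for S100a9, -0.24 to 0.0171 for Cox8a, -0.0293 to 0.24 for Pdgfrb, -0.22 to 0.64 for Jchain, -1.44 to 1.20 for Xist, -1.71 to 0.18 for Ddx3y and -1.82 to 0.0584 for Uty. With the Y-linked score, Col3a1 had 0.0443, Ddx3y 0.287 and Uty 0.0703, and with the proximal tubule score Jchain had -0.90 and Xist 0.602. Depth limits what is seen under 0.174 CPM, and 3 residual degrees of freedom limit the power: at the simulated log2 change of 1, 62 of 100 genes were found.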

Other observations

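Called genes were spread over the genome. The share of tested genes called ran from 3.27% on chromosome X to 6.11% on chromosome 3, and 0 of 18 mitochondrial and 0 of 11 Y-linked genes were called by edgeR. Of 447 windows of 5 Mb with at least 10 tested genes, 131 held 0 called genes and the median share was 4.23%. The densest, chromosome 5 from 45 to 50 Mb, held 3 called of 10: D5Ertd615e (2.12 ± 0.31, SE), the condensin gene Ncapg (2.09 ± 0.39) and Gm43303 (2.07 ± 0.40), all higher by edgeR. D5Ertd615e and Gm43303 overlap on the same strand, so their counts may not be separate; D5Ertd615e, Ncapg and Gm43303 lost their call in 3, 7 and 9 of 12 alternatives. Next to it, 6 of 22 were called from 40 to 45 Mb, where the endothelial cofactor Ldb2 rose by 0.49 and the NAD-consuming enzyme Cd38 by 0.68 while 4 others fell. On chromosome 13, from 0 to 5 Mb, the exchange factor Net1 fell by 0.94 and Asb13 fell by 0.83, and Akr1c12 rose by 2.08. On chromosome 1, from 10 to 15 Mb, the Rac exchange factor Prex2 read 719, 548, 497 and 544 CPM in LCDD and 260.3, 247, 214 and 275 CPM in DH-LMP2A (1.20 ± 0.12, edgeR adjusted p = 0.00717), with no overlap, while Lactb2 and Eya1 in the same window fell by 0.63 and 1.43. These windows hold few genes each, and windows were chosen by their share, so no test is given.

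Predicted genes, clones, microRNA genes and pseudogenes made up 105 of the 779 calls (13.48%), against 16.59% of the genes tested. In 9 called genes every DH-LMP2A library lay at or under the floor, and in 9 others every LCDD library did. In pairs 1 to 4, the median log2 difference of the genes called higher was 1.12, 1.28, 0.84 and 1.09, and that of the genes called lower was -1.23, -1.34, -1.03 and -1.29, smallest in pair 3 in both directions. Principal component 1 of log2 CPM held 44.6% of the variance of the 8 libraries and component 2 held 26.2%.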
